A study of Rattus norvegicus with 2 samples.

Results

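The genes described here are 9 rat orthologs of genes that lie near human risk loci for intracranial aneurysm or that carry rare variants reported for the disease: Sox17, Ednra, Rbbp8, Stard13, Cnnm2, Cdkn2b, Thsd1, Angptl6 and Arhgef17. They were chosen by name, with earlier results of these data known. Probes were named by matching the accession on the array to a RefSeq gene table, which gave 8 of the 9 genes at least 1 probe, among 15159 genes with a probe in all. No probe was matched to Arhgef17, a guanine nucleotide exchange factor gene, and it is not analysed here. The 8 genes had 12 probes, which together had 36 spots on each array.

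Expression was measured on 2 one-colour Agilent arrays of rat intracranial arterial tissue. The aneurysm library (1 array) came from an aneurysmal lesion taken 3 weeks after induction, and the control library (1 array) from intracranial arterial wall of rats without treatment. The sources used here do not give the strain, age, sex, genotype, number of animals per library or method of induction. Each group has 1 array, so the differences carry no replicate check and no test or p-value, and the number of arrays limits the precision. Every comparison describes these 2 libraries.

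Intracranial aneurysms form where the wall of a cerebral artery thins and bulges, and inherited risk for them points to genes of the vessel wall as well as to genes with general roles in the cell. Sox17 is a transcription factor of arterial endothelium, and Thsd1 is a membrane protein with a thrombospondin repeat that endothelial cells carry at their focal adhesions. Ednra is the endothelin receptor through which endothelin contracts smooth muscle, Stard13 is a GTPase-activating protein and Arhgef17 a guanine nucleotide exchange factor, Cdkn2b and Rbbp8 act in cell division and DNA repair, Cnnm2 handles magnesium and Angptl6 is a secreted protein of the angiopoietin-like family. The study's comparison asks which genes differ between induced aneurysm and normal arterial wall. For this set the question is whether genes tied to inherited risk differ in level once a lesion has formed.

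None of the risk genes differed 2-fold between the libraries. Of the 8 genes with a probe, 7 were well above background on at least 1 array. Their log2 differences, aneurysm minus control, lay between -0.30 (Angptl6) and 0.41 (Cdkn2b). Their median was 0.16, against 0.00 over all 11903 genes with a difference. That median is the value of Stard13, whose probes did not share a direction. Averaged over probes, the median of the set was 0.07. With normexp background correction it was 0.08 over 6 genes, against -0.06 over all genes. Of all genes, 4.82% differed at least 2-fold in either direction, 0.891% higher in the aneurysm library and 3.93% lower, so 0 of 7 is near the background share. At the lower threshold of 1.5-fold the count was also 0 of 7, where 12.7% of all genes passed (4.26% higher and 8.47% lower). By direction alone 5 of the 7 were higher in the aneurysm library, against 50.2% of all genes. Averaged over probes, 4 of the 7 were higher. Cdkn2b entered these counts only because it was well above background in the aneurysm library, so the filter partly sets its direction.

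Levels are given as a percentage of the 75th percentile of each array's spot intensities, 801 intensity units in the aneurysm library and 621 in the control library, which removes the difference in overall brightness between the arrays. The value after ± is the spot error on the log2 scale, which comes from the scatter of repeat spots on the same array and holds no variation between animals. The scanner software gives its own error for each spot, which was at most 11.1% of the intensity in the 42 member spots brighter than 80 units and ranged between 11.6% and 101% in the 30 dimmer ones. For a bright gene that amounts to 0.20 to 0.22 log2 units on a difference. No probe of the 8 genes differed between the libraries by more than 2 of these software errors, while 15.6% of all genes did. Scaling on spike-in controls in place of the percentile shifts the median of all genes by 0.30, so with it a listed gene or list median between -0.30 and 0 turns to above 0, among them Sox18, Ednrb, Ece1, Thsd1 and Cnnm3. Levels of different probes are not comparable with each other, because each probe binds its target with its own strength.

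**Figure D1:**
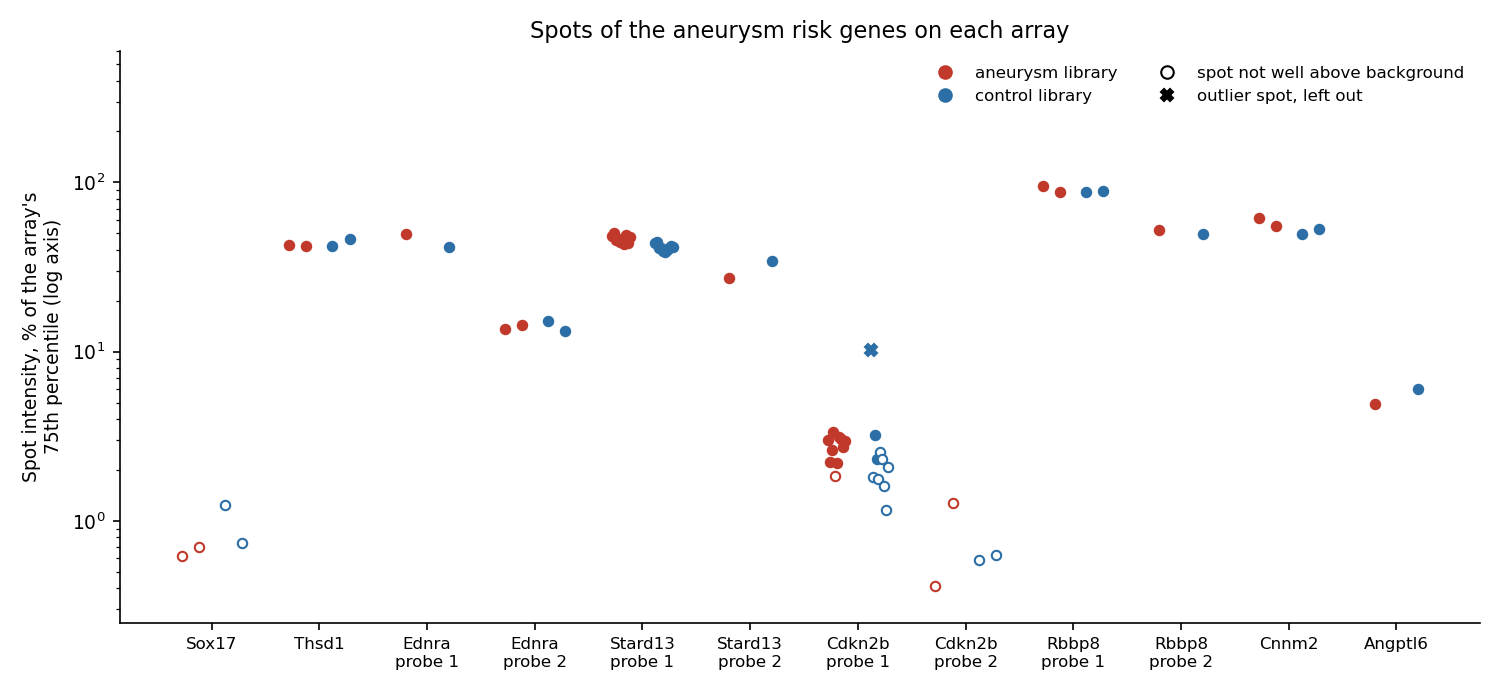
Intensity of every spot of the 8 risk genes with a probe, as a percentage of the array's 75th percentile on a log axis, with the aneurysm library left of the control library for each probe. Filled circles are well above background, open circles are not, and the cross is a Cdkn2b spot at 10.2% that was left out as an outlier. Sox17 and the second Cdkn2b probe have open circles only, and for most other probes the spots of both libraries lie at nearly the same height.

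Sox17 was not well above background in either library. Its 1 probe gave 0.623% and 0.697% of the 75th percentile in the aneurysm library, against 1.24% and 0.741% in the control library, and no spot was well above background. The software error of these 4 spots was between 39.9% and 61.5% of their intensity, and no fold change is given. This is not evidence that its RNA was absent. The endothelium itself was detected in both libraries: all 8 endothelial marker genes with a probe were well above background on both arrays, among them Pecam1, an adhesion molecule of endothelial junctions, at 421% in the aneurysm and 335% in the control library.

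The other Sox factors of the same subgroup and the genes of arterial endothelium were measured. Sox18 had a level of 123% in the aneurysm library and 140% in the control library (-0.18 ± 0.06), and Sox7 had 6.64% in the aneurysm library and 5.43% in the control library (0.29 ± 0.53 on 1 spot per array, but -0.03 with normexp background correction). A further probe of Sox7 pointed the other way, so that the mean over its probes was -0.81. Of 16 measured genes on a list of Sox partners and arterial endothelial genes, 1 was past 2-fold in the direction of the aneurysm library and 0 in that of the control library, with a list median of 0.13. The gene past 2-fold was Gja5, which encodes the arterial gap junction protein connexin 40, at 88.9% in the aneurysm and 40.7% in the control library (2.18-fold, 1.13 ± 0.08). With normexp it was 0.996, just under 2-fold. Next to it were the receptor gene Notch4 (0.39 ± 0.04) and Acvrl1, the endothelial BMP receptor ALK1 (0.38 ± 0.03). In bulk tissue, more endothelial cells and more RNA per endothelial cell cannot be told apart. The 8 endothelial markers had a median of 0.18, their summed level was 15.1 times the 75th percentile in the aneurysm library and 13.8 times in the control library, with 5 of the 8 higher and 3 lower. The highest was the TGF-beta co-receptor Eng, at 0.99 ± 0.08 (1.30 with spike-in scaling), while Cdh5, the endothelial cadherin gene, was at -0.24 ± 0.09 (0.07 with spike-in scaling). The median of these markers was 0.04 with normexp and 0.0042 with normexp on median signals. The part of these markers in the Gja5 value was not tested.

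Thsd1, the other endothelial gene of the set, had nearly the same level in both libraries. Its 2 spots were at 42.5% and 42.1% in the aneurysm library, against 42.4% and 46.0% in the control library. The spots overlapped between the arrays, and the difference of -0.06 ± 0.09 was smaller than its spot error. Thsd1 takes part in the attachment of endothelial cells through talin and focal adhesion kinase, and a list of genes of focal adhesions and of others with a thrombospondin domain had a median of 0.22 (0.11 with normexp). Of its 10 measured genes 8 were higher in the aneurysm library, 2 were lower (Vcl and Thsd7a) and none was past 2-fold. Over all genes 50.2% were higher. Itgb1, the beta 1 integrin subunit, was at 0.61 ± 0.06, the integrin-linked adaptor gene Parva at 0.55 ± 0.07, and Ptk2, which encodes focal adhesion kinase, at 0.34 ± 0.03. Tns1, a tensin that links integrins to actin, was at 0.41 ± 0.53. With normexp Tns1 was at -0.02, while Itgb1 was at 0.62, Parva at 0.52 and Ptk2 at 0.33. These adhesion genes are expressed by fibroblasts and smooth muscle as well as endothelium, and the fibroblast markers had a median of 0.48 over 6 genes and a summed level of 95.5 times the 75th percentile in the aneurysm and 79.1 times in the control library. The part of fibroblasts in the adhesion gene values was not tested.

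Ednra, the receptor that couples endothelin to smooth muscle contraction, had probes that did not give the same value. Its brighter probe, with 1 spot per array, was at 49.7% in the aneurysm library and 41.6% in the control library, a 1.19-fold difference (0.25 ± 0.12). Its second probe was at 13.7% and 14.3% in the aneurysm library, against 15.1% and 13.2% in the control library, where the spots overlapped and the difference was -0.01 ± 0.16. Averaged over both probes the difference was 0.12. Of all genes, 19.0% had a difference as high as that of the brighter probe or higher.

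Other genes of the endothelin system stayed within 2-fold. Endothelin precursor gene Edn1 was at 3.98% in the aneurysm library and 3.78% in the control library (0.07 ± 0.23), and Edn3 was at 109% in the aneurysm and 99.7% in the control library (0.12 ± 0.07). The other receptor, Ednrb, which endothelial cells and astrocytes also carry, was at 38.8% in the aneurysm and 40.9% in the control library (-0.07 ± 0.09), and the endothelin-converting enzyme gene Ece1 was at -0.09 ± 0.09. Across 12 measured genes of the list none passed 2-fold, and the median was -0.04. The largest value was that of Rgs4, a regulator that switches off G protein signalling and is strongly expressed in brain, at 201% in the aneurysm and 295% in the control library (-0.55 ± 0.03). It was followed by the second converting enzyme Ece2 (0.42 ± 0.49, but -0.05 with normexp) and by the G protein subunits Gnaq (-0.38 ± 0.17) and Gna11 (0.17 ± 0.26, but -0.07 with normexp). Neuron markers were lower in the aneurysm library in 4 of 5 genes (median -0.23, with Tubb3 at -1.22 ± 0.07 and Slc17a6 at -1.10 ± 0.07), and the part of brain tissue in the Rgs4 value was not tested. All 8 smooth muscle markers were well above background on both arrays, with a median of 0.17 and a summed level of 108 times the 75th percentile in the aneurysm and 97.6 times in the control library. The contractile genes Cnn1 (0.51 ± 0.08) and Des (0.49 ± 0.06) differed most among them. Of the 8 markers, 6 were higher and 2 were lower, Acta2 at -0.01 ± 0.05 and Smtn at -0.09 ± 0.07.

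**Figure D2:**
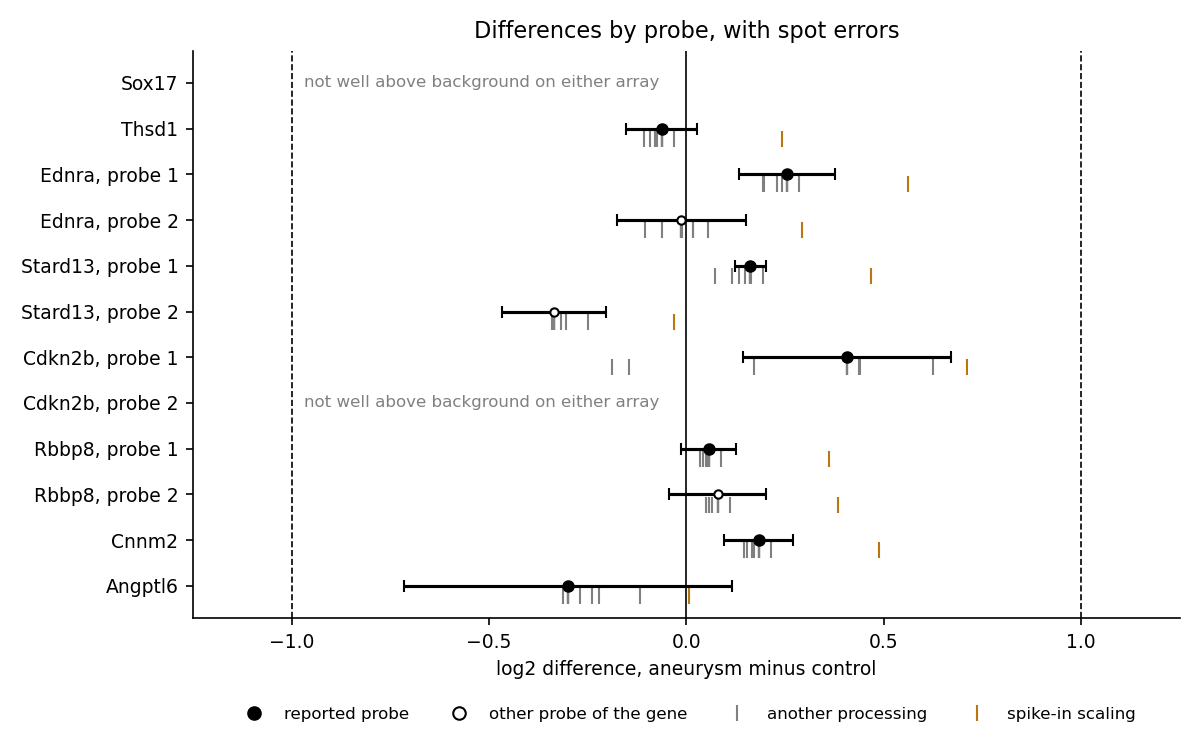
Log2 difference, aneurysm minus control, for each probe of the risk genes, with bars of 1 spot error and dashed lines at 2-fold. Short ticks under each point are the same value under other processing. All points lie inside the 2-fold lines, the probes of Stard13 lie on opposite sides of 0 (0.16 and -0.34), and the orange ticks of spike-in scaling lie to the right of every point.

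Stard13, a GTPase-activating protein, had many repeat spots on both arrays. Its first probe had 10 spots, with a lowest, median and highest level of 43.2%, 45.8% and 50.2% in the aneurysm library, against 38.8%, 41.0% and 44.7% in the control library. The ranges overlapped, but at all 10 positions the spot was brighter in the aneurysm library, by 0.05 to 0.25 log2 units. The difference of this probe was 0.16 ± 0.04 (1.12-fold), or 4.06 spot errors, but smaller than its software error of 0.21. The second probe of Stard13, with 1 spot per array, was at 27.1% in the aneurysm library and 34.2% in the control library, a difference of -0.34 ± 0.13 in the opposite direction. The unscaled intensity of that spot was 217 units in the aneurysm and 212 units in the control library, so this value depends on the scaling. With spike-in scaling the second probe was at -0.03. Averaged over both probes the value was -0.09, so these arrays give no direction for Stard13. Repeat spots of 1 library share the same labelled RNA, and their agreement says nothing of other animals.

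Cdkn2b, the CDK inhibitor p15 that holds cells before DNA synthesis, had the highest difference of the set, on the dimmest measured probe. Of its 10 spots, 9 were well above background in the aneurysm library, against 2 of the 9 used in the control library. Their lowest, median and highest levels were 1.85%, 2.85% and 3.37% in the aneurysm library, against 1.17%, 2.07% and 3.20% in the control library. The ranges overlapped, and 7 of 9 positions were brighter in the aneurysm library. The difference was 0.41 ± 0.26 (1.33-fold). Because the control level was not well above background, the value was treated as a bound. The control level nevertheless exceeded the dimmest level that counted as detected on that array (1.17%), so the bound equals the measured difference and is not a strict lower limit.

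The Cdkn2b value depended on 1 control spot and on the background correction. The remaining control spot, at 10.2%, was marked as an outlier by the scanner software, and with it the difference was 0.17. With normexp correction the measured difference turned to -0.15, and no bound could be given. Among the 807 genes of like signal, within 0.5 log2 units of its brighter level, 202 had a difference as high or higher. Neither array detected a second Cdkn2b probe above background.

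The related inhibitors of CDK4 and CDK6 did not share a direction. Cdkn2a, the neighbour of Cdkn2b in the genome and the source of p16 and p19ARF, was at 5.03% in the aneurysm library and 8.84% in the control library (-0.81 ± 0.23, and -0.57 with normexp). Cdkn2c, or p18, was at 10.8% in the aneurysm and 6.94% in the control library (0.64 ± 0.26, but 0.22 with normexp), and Cdkn2d was at 0.06 ± 0.16. Of 14 measured genes of the pathway none passed 2-fold, and the median was 0.07. Rb1, the retinoblastoma protein on which these kinases act, was at 0.47 ± 0.11, and Cdkn1a, the inhibitor p21, at -0.42 ± 0.05 (-0.12 with spike-in scaling). Of 4 markers of dividing cells, 2 had a probe. Cdk1, the mitotic kinase, was at 0.83 ± 0.05. Ccnb2, its cyclin partner, was well above background in the aneurysm library only, so the filter partly sets its direction. Its bound was 1.14 ± 0.54, or 0.17 with normexp. As for Cdkn2b, the bound equals the measured difference and is not a strict lower limit. The part of cell division in the values of this pathway was not tested.

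Rbbp8, also called CtIP, which trims broken DNA ends so that they can be repaired by recombination, had a like level in both libraries with both of its probes. The first probe was at 95.8% and 88.0% in the aneurysm library, against 87.6% and 89.0% in the control library, where the spots overlapped (0.06 ± 0.07). The second, with 1 spot per array, was at 52.2% in the aneurysm and 49.4% in the control library (0.08 ± 0.12). Both differences were smaller than their spot errors. Among 9 measured genes of DNA end resection 6 were higher and 3 lower, with a median of 0.03 and none past 2-fold. Bard1, the partner of Brca1, was at 0.45 ± 0.37, Nbn, a subunit of the complex that binds broken ends, at 0.20 ± 0.09, the nuclease Exo1 at -0.32 ± 0.52 and the histone-binding protein Rbbp7 at 0.40 ± 0.06. With normexp Bard1 was at 0.08, while Rbbp7 was at 0.41. The name Rbbp7 marks binding to the retinoblastoma protein, as that of Rbbp8 does, and the proteins are not of the same family.

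Cnnm2, a membrane protein of magnesium handling that is strong in kidney and brain, was slightly brighter in the aneurysm library at both of its spots. They were at 61.5% and 55.7% in the aneurysm library, against 49.8% and 53.3% in the control library, and the ranges did not overlap. The difference was 0.18 ± 0.09 (1.14-fold), or 2.11 spot errors, and smaller than the software error of 0.20. At a threshold of 2 spot errors higher in the aneurysm library, 3 of the 7 measured risk genes passed (Stard13, Cnnm2 and Ednra), against 21% of all genes, and none was lower by as much, against 21.9% of all genes. The spot error leaves out every source of variation between animals, and for Stard13 and Ednra the second probe did not share the direction.

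The relatives of Cnnm2 did not share its direction. Cnnm1, which is expressed mainly in brain, was at 65.1% in the aneurysm library and 101% in the control library (-0.63 ± 0.07), and Cnnm3 was at -0.08 ± 0.06. Across 9 measured genes of magnesium transport 3 were higher and 6 lower, with a median of -0.10 and none past 2-fold. The phosphatase Ptp4a2, which binds Cnnm proteins, was at -0.29 ± 0.05 and the mitochondrial magnesium channel Mrs2 at -0.28 ± 0.07. Both were at 0.02 with spike-in scaling. The transporter Magt1 was at 0.23 ± 0.14. Oligodendrocyte markers were lower in the aneurysm library in 5 of 5 genes, with a median of -1.22 and a summed level of 83.0 times the 75th percentile, against 163 times in the control library. Astrocyte markers had a median of -0.23 over 4 genes. The part of brain tissue in the Cnnm1 and Cnnm2 values was not tested.

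Angptl6, a secreted factor that liver makes in rodents, was dim and did not differ beyond its error. Its 1 spot was at 4.91% in the aneurysm library and 6.05% in the control library, a difference of -0.30 ± 0.41. The unscaled intensity was 39.4 units in the aneurysm and 37.5 units in the control library, so that the direction of this value comes from the scaling. With spike-in scaling it was 0.01. Of 6 measured members of the angiopoietin family list 4 were higher and 2 lower, with a median of 0.09 and none past 2-fold. Angptl2 was at -0.29 ± 0.06 and the Tie2 ligand gene Angpt1 at -0.41 ± 0.07, values that were 0.02 and -0.10 with spike-in scaling, and the endothelial receptor Tie1 was at 0.23 ± 0.16 (0.06 with normexp). Tek, which encodes the receptor Tie2, was at 0.19 ± 0.18 (0.01 with normexp). All 7 hepatocyte markers with a value were at least 2-fold lower in the aneurysm library (median -4.37). For Fga (-5.31) and Hpd (-4.13) the aneurysm array gave no level well above background. Their values are bounds, and the filter partly sets their direction. The 5 markers well above background on both arrays were all at least 2-fold lower (median -4.37). The summed level of the 7 markers was 0.556 times the 75th percentile in the aneurysm library, against 20.1 times in the control library. The albumin gene Alb was at 30.9% in the aneurysm and 1416% in the control library. Neither array detected the hepatocyte genes Cps1 and Tat above background. The difference of Angptl6 was -0.30 beside that hepatocyte median, and the part of liver RNA in it was not tested.

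**Figure D3:**
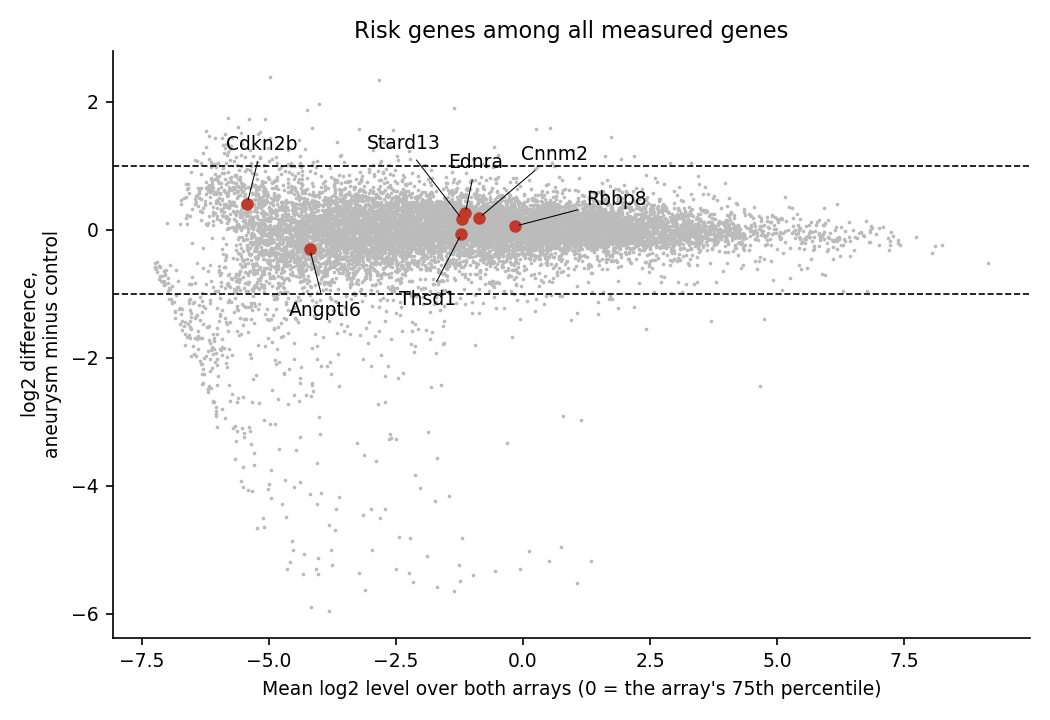
Log2 difference, aneurysm minus control, against the mean log2 level over both arrays for 11903 genes (grey), with the 7 measured risk genes in red and dashed lines at 2-fold. The risk genes lie within the main band of genes, and Cdkn2b and Angptl6 lie at the dim end, where the band is wide.

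Other genes reported for intracranial aneurysm risk also stayed within 2-fold with the percentile scaling. Of 9 measured genes on a further list none passed 2-fold, and the median was -0.05. With spike-in scaling 1 passed it, Eln at 1.02. Eln, which encodes the elastin of the internal elastic lamina, was at 1419% in the aneurysm library and 864% in the control library (0.71 ± 0.08, and 0.73 with normexp). Slc22a4, an ergothioneine transporter, was at -0.81 ± 0.29 (-0.53 with normexp). Loxl2, an enzyme that crosslinks elastin and collagen, was at 0.24 ± 0.07 and the proteasome subunit Psma4 at -0.31 ± 0.06, which spike-in scaling moved to -0.00094.

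**Figure D4:**
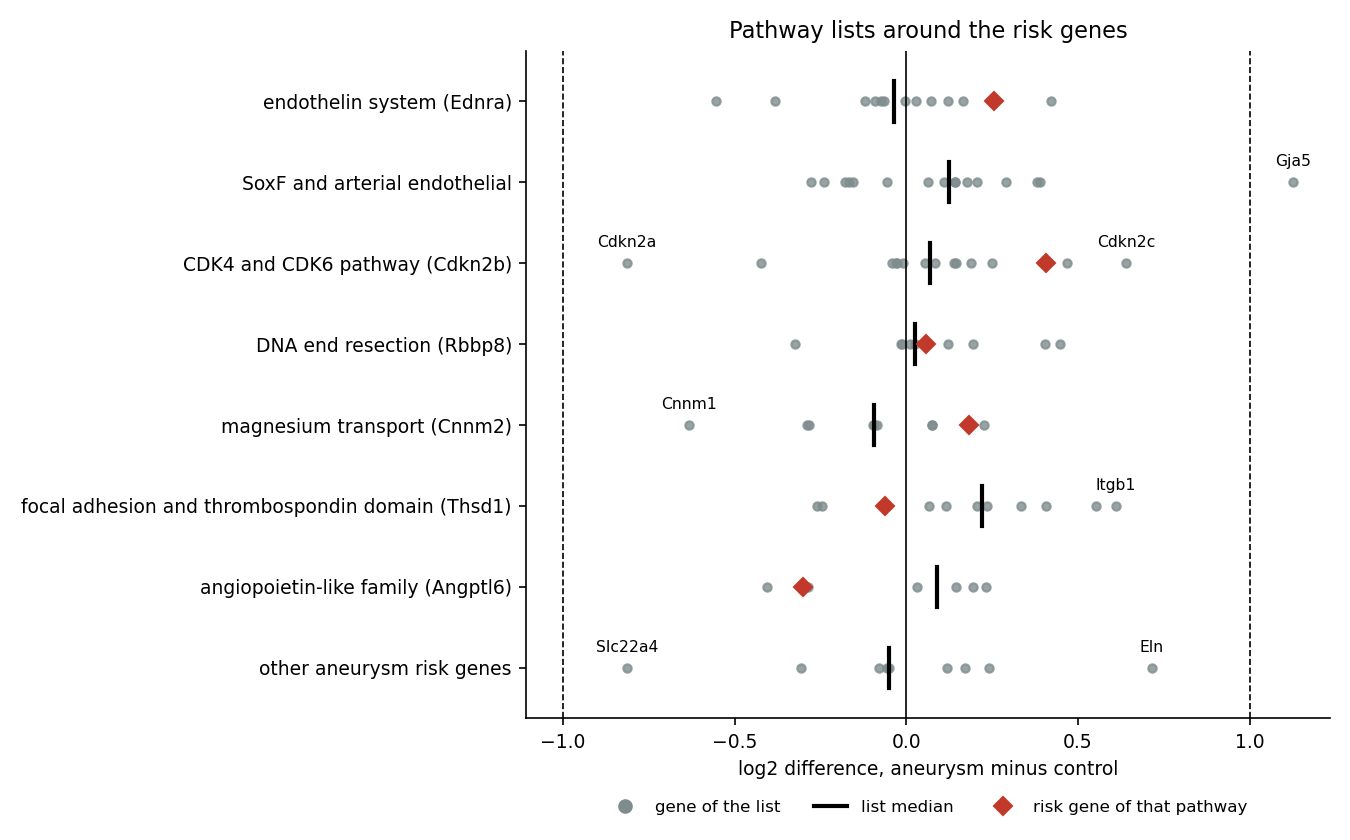
Log2 differences, aneurysm minus control, of the measured genes on 8 pathway lists (grey circles), with the list median (black bar), the risk gene of that pathway (red diamond) and dashed lines at 2-fold. Gja5 (1.13) is the only plotted gene outside the 2-fold lines, and the 6 risk genes shown lie inside them.

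Over the 8 pathway lists together, 85 genes had a difference, of which 1 passed 2-fold upwards (Gja5) and 0 downwards. Over all genes the shares were 0.891% upwards and 3.93% downwards. The median of the 85 genes was 0.06, and their lower and upper quartiles were -0.10 and 0.20, against -0.21 and 0.19 for all genes. Direction in these small values depends on the scaling. With spike-in scaling the median of all genes shifted by 0.30, and all 7 risk genes with a value were then above 0, Thsd1 at 0.24 and Angptl6 at 0.01. Relative to the median of all genes, 5 of the 7 were higher with either scaling. This had to be so, because spike-in scaling moves all genes by nearly the same amount. That count was 4 of 7 averaged over probes and 4 of 6 with normexp, where Cdkn2b had no value. Because 2 arrays give only 1 difference per gene, no measure of likeness between genes across samples could be computed.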

How the data were processed

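Total RNA of 2 tissue samples was labelled with Cy3, per the labels' protocols. The authors deposited Feature Extraction 10.10.1.1 output per array. The deposited values used are processed and median spot intensities on a linear scale, and 0 or 1 flags, per the file headers. Of 58717 non-control spots, 76.4% (aneurysm) and 74.7% (control) were well above background and 0 were saturated.

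Each array's 75th percentile was subtracted on the log2 scale, 573 (aneurysm) and 484 (control) outlier spots were left out, and spots were averaged over 30367 probes. Of these, 18006 matched 1 gene of RefSeq (GRCr8; names only, since the array's grid is of another build). For each gene the brightest probe that was well above background (at least as many flagged as unflagged spots) on 1 array or both was used. Where only 1 array detected it, the difference is a bound against the dim level or the lowest detected level of that array, whichever was higher. Spot SDs were pooled over probes in 20 signal bins. The software error takes the median relative error of a probe's spots and is not reduced by repeats. The code was tested on simulated arrays.

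Members and lists were chosen with earlier results of these data known. Some listed genes and 1 list are not reported here and are left out of the counts. All members are named, plus up to 4 genes per pathway list (2-fold first, then the largest differences) and up to 3 per marker list. Close relatives and partners (Sox18, Edn1, Edn3, Ednrb, Ece1, Cdkn2d, Cnnm3) were named after their values were seen. So were the lower adhesion list genes (Vcl, Thsd7a) and the lower smooth muscle markers (Acta2, Smtn). In the macrophage list (median 0.22, 7 genes) 6 genes were higher and 1 was lower. Its largest differences were those of Cd163 (0.65), Adgre1 (0.39) and Csf1r (0.27). In the pituitary list (median -2.23, 3 genes) Pomc was at -2.97, Gh1 at -2.23 and Cga at -1.41. Software was Python 3.11.15, statsmodels 0.14.6 and limma 3.58.1. Alternatives were 11 fixed in advance and 1 added after seeing the data, plus thresholds of 1.5-fold and 4-fold. Normexp (offset 50) ran on processed signals, and the added one on median spot and background signals.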

Additional observations from a re-analysis of the deposited data

How the results depend on the processing

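No paired analysis was possible because each group holds 1 array. The count of risk genes at least 2-fold apart was 0 in each direction under all 12 alternatives and at both other thresholds. Spike-in scaling, which shifts all genes by 0.30, moved Ednra to 0.56, Rbbp8 to 0.36, Stard13 to 0.47, Cnnm2 to 0.49, Cdkn2b to 0.71 and Thsd1 to 0.24. Averaging probes gave 0.12 for Ednra and -0.087 for Stard13, and normexp gave 0.11 for Stard13, or 0.073 on median signals (added after seeing the data). The other member values moved by less than their spot error. Cdkn2b had no value with either normexp or with probes well above background on both arrays only. Pathway list genes at least 2-fold higher numbered 1, against 0 with normexp and normexp on median signals, 2 with spike-in scaling, 4 at 1.5-fold and 0 at 4-fold. Those lower numbered 0, against 1 with no filter and 3 at 1.5-fold. For all genes, 106 were higher and 468 lower. Normexp gave 16 and 216, and the further counts were 15 and 195 with normexp on median signals, 185 and 768 with no filter, 52 and 240 with probes well above background on both arrays, 507 and 1008 at 1.5-fold, and 2 and 181 at 4-fold. With quantile normalization 166 genes were higher, and with spike-in scaling 313. The lower share among genes past 2-fold was 81.5%, against 93.1% with normexp, 92.9% on median signals, 71.1% after quantile normalization and 51.5% after spike-in scaling. The causes were not tested. The filter to both arrays left 11202 genes, against 11903, and it leaves out genes detected on 1 array only. Signal over background limits Sox17, Cdkn2b and Angptl6.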
